A study of Mus musculus with 9 samples.

Results

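Undifferentiated Kusa4b10 cultures were compared with every other array of a mouse osteosarcoma expression study, to show which genes set them apart from both differentiated osteoblasts and osteosarcoma lines. Kusa4b10 is a mouse bone marrow stromal cell line that can form osteoblasts in culture, and its undifferentiated cultures stand for pre-osteoblasts in the labels. Genes were taken where all 3 pre-osteoblast values lay above, or all 3 lay below, the 6 other values. This gave 3763 of the 19938 genes measured: 2311 above and 1452 below. Each gene was read from 1 probe set, a group of probes for 1 transcript, and where a gene had several the one with the highest mean over the 9 arrays was used.

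The 3 pre-osteoblast arrays came from independent undifferentiated cultures of Kusa4b10. The 3 osteoblast arrays came from independent cultures of the same line kept for 21 days in medium with ascorbate, which supports collagen synthesis and mineralisation. The 3 osteosarcoma arrays came from the lines 493H, 494H and 716H, in this order, grown subconfluent below passage 8 from tumours of adult C57BL/6 mice of genotype Osx-Cre p53fl/fl Rbfl/fl, in which Cre is driven by the osteoblast-lineage promoter of Osx (Sp7). The labels call the tumour lines fibroblastic, and they give no strain, sex or age for Kusa4b10. All Kusa4b10 arrays stem from 1 line, so their spread is that between cultures, and each tumour line has 1 array. Against the osteoblast cultures, the undifferentiated state and a short time in culture or another medium cannot be told apart. Against the tumour lines, state, line of origin and genotype cannot be told apart either.

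Bone marrow stromal cells hold progenitors that can become osteoblasts, adipocytes or chondrocytes. On the way to a mature osteoblast, cells stop dividing, lay down collagen and a mineralising matrix, enlarge their secretory pathway and change the adhesion molecules that tie them to that matrix. Stromal cells also sense viral nucleic acids. This drives type I interferon genes, and interferon then acts through its receptor, JAK kinases and transcription factors on a large set of antiviral genes that carry an interferon-stimulated response element.

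Values are log2 levels made with RMA, so a difference of 1 is a doubling, and the array medians over all probe sets ran from 7.43 to 7.56. Correlations over all genes within a group were 0.9936 to 0.9968 for pre-osteoblasts, 0.9935 to 0.9978 for osteoblasts and 0.9819 to 0.9871 for the tumour lines. Between groups they were 0.96 to 0.9701 for pre-osteoblasts with osteoblasts and 0.9591 to 0.9695 for pre-osteoblasts with tumour lines, and 0.9505 to 0.963 for osteoblasts with tumour lines. Line 716H is labelled female, but its array held Y-linked transcripts (Kdm5d 8.76, Uty 9.80 and Eif2s3y 10.06) and Xist at 5.56, close to the male line 494H (Kdm5d 8.74, Uty 9.51 and Eif2s3y 9.88), whereas 493H had Xist at 12.70. Without the array labelled 716H, the genes with no overlap numbered 2517 above and 1690 below. Defining markers of blood and epithelial cells were low in all arrays: Ptprc (CD45, all leukocytes) lay between 5.97 and 6.21, Adgre1 (macrophages) between 5.58 and 5.67, Cdh1 (epithelial cadherin) between 6.92 and 7.13 and Epcam between 6.10 and 6.29. Ibsp, a protein of mineralising matrix, lay at 13.07, 13.62 and 12.91 in the osteoblast cultures against 6.72, 5.97 and 6.01 in pre-osteoblasts, which fits their labels. RNA came from whole cultures, so fewer cells of a type and less RNA per cell cannot be told apart.

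In the fit over all genes, 2889 genes (14.5%) were higher and 1920 (9.63%) lower in pre-osteoblasts than the mean of the osteoblast and osteosarcoma group means, at an adjusted p below 0.05 (limma, Benjamini-Hochberg over 19938 genes). Genes with no overlap made up 11.6% above and 7.28% below. The rule and the fit read the same 9 values, so the calls of these genes describe them and add no independent support. Of the 2311 genes above, 2029 were called higher and 282 were not. Of the 1452 below, 1162 were called lower and 290 were not. Without the third pre-osteoblast culture, 1155 genes were called lower.

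Most of these differences were modest. Above, the median difference was 0.51, 345 genes reached 1 log2, 50 reached 2 and 7 reached 3, called or not. Below, the median was -0.47, and 264, 75 and 22 genes passed the same sizes. Fewer genes lay below, but more of them differed by at least 2 log2, and the widest difference was -5.26 below and 4.70 above. The split between the directions depended on the scaling. It was 2311 to 1452 (61.4% above) as deposited, 2062 to 1642 (55.7% above) with arrays centred on their median, and 1963 to 2071 (48.7% above) with quantile normalization applied again. Of the genes above, 1928 were again above after quantile normalization, and 1393 of those below were again below.

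The contrast is the average of 2 differences that share the pre-osteoblast arrays. Against osteoblasts alone, 3153 genes (15.8%) were higher and 2049 (10.3%) lower, and against osteosarcoma 2700 (13.5%) and 1986 (9.96%). Among the genes above, 1362 were called higher against each of the other groups, 287 against osteoblasts only, 398 against osteosarcoma only and 264 against neither. Among the genes below, the same counts were 666, 247, 303 and 236. Osteoblasts and tumour lines differed from each other in 637 of the genes above (27.6%) and 440 of those below (30.3%), against 27.4% of all genes. A fit that treats the 6 other arrays as 1 group counts that difference as spread, and it called 1415 genes higher and 687 lower.

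**Figure D1:**
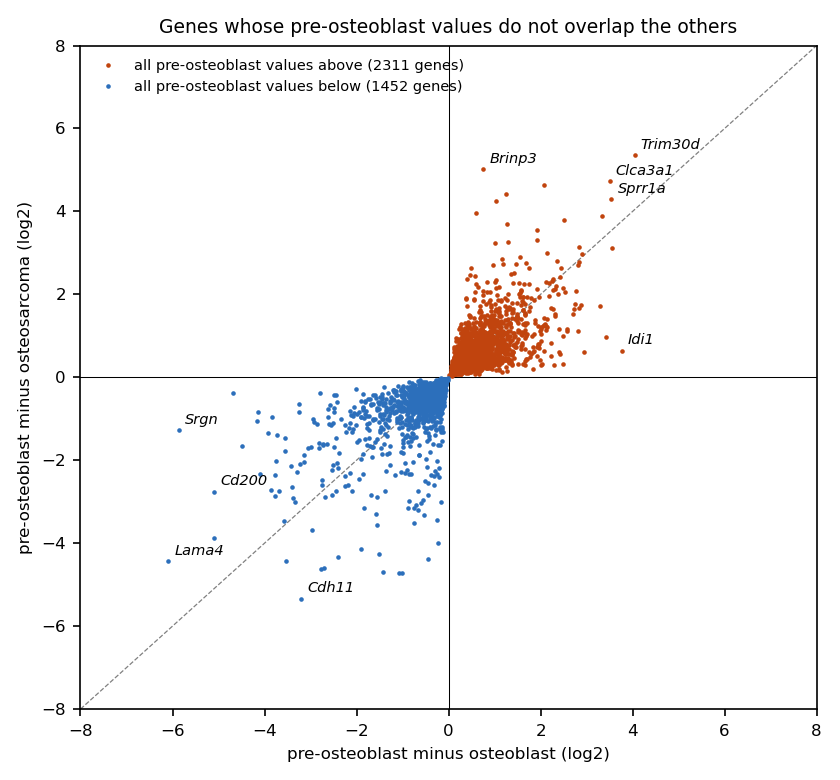
Each point is a gene whose 3 pre-osteoblast values do not overlap the 6 others, with its log2 difference from the osteoblast mean across and from the osteosarcoma mean up (2311 genes above in orange, 1452 below in blue). Trim30d, Clca3a1 and Sprr1a stand far from both groups, Brinp3 and Cdh11 are farther from the tumour lines, and Idi1, Srgn and Cd200 farther from osteoblasts; both axes share the pre-osteoblast arrays, and the dashed line marks equal differences.

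The rule places genes with large gaps and genes that barely clear the others side by side. Cdc42ep2 just entered above, with pre-osteoblast values of 11.26, 11.22 and 11.21 against osteoblast values of 8.94, 9.36 and 8.73 and tumour-line values of 11.21, 9.50 and 10.50. Fhdc1 just missed it, at 9.36, 9.69 and 9.54 against 6.99, 7.57 and 7.03 and against 9.06, 9.37 and 8.12. Egln3 just entered below, at 6.29, 5.84 and 6.15 against 6.41, 6.50 and 6.29 and against 8.61, 9.13 and 7.70. Xk just missed it, at 6.37, 6.45 and 6.48 against 6.47, 6.64 and 6.55 and against 8.31, 8.68 and 7.99. The gap between the groups was at least 1 log2 for 69 genes above and 58 below.

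The promoters of some raised genes are shown first, picked because several carry the letters of an interferon-stimulated response element. They do not stand for the most raised genes at large. Serpinb6b (3.15), Ccl9 (2.93) and Irf7 (2.74) differed by more than Cxcl10 (2.25) and are not shown. The sequences are RefSeq windows of build GRCm38.p6, matched by gene symbol, from 250 bases before to 30 bases after the start of the gene and written on the gene's own strand (all on the minus strand). Capitals mark GAAANNGAAA or its reverse complement in the first 5, and TGANTCA, the letters of an AP-1 element, in Sprr1a. The Cxcl10 window also holds TGANTCA, which is not set in capitals. The windows lie at chr7:104507820-104508099 (Trim30d), chr7:104465164-104465443 (Trim30a, the one of its 2 windows that holds the letters), chr3:144760948-144761227 (Clca3a1), chr15:77596096-77596375 (Apol10b), chr5:92348860-92349139 (Cxcl10) and chr3:92485852-92486131 (Sprr1a).
Trim30d: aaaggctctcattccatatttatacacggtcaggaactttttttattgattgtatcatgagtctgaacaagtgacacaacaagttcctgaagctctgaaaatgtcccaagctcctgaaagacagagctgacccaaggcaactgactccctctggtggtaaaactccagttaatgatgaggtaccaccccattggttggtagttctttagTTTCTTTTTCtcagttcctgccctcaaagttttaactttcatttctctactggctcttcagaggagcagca
Trim30a: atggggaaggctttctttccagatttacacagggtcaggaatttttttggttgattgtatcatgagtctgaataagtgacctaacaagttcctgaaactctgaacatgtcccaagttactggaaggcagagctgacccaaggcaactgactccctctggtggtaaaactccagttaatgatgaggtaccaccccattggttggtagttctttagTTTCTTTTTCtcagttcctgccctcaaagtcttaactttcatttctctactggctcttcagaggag
Clca3a1: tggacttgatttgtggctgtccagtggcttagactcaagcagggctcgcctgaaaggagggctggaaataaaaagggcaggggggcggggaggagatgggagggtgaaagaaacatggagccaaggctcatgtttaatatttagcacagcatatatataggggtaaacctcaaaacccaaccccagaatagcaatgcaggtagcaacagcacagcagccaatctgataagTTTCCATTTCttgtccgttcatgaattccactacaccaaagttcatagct
Apol10b: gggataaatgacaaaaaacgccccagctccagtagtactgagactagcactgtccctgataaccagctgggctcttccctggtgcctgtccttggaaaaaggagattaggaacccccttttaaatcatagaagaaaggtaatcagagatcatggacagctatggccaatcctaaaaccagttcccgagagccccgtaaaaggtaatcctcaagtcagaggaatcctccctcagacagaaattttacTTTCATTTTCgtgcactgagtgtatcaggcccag
Cxcl10: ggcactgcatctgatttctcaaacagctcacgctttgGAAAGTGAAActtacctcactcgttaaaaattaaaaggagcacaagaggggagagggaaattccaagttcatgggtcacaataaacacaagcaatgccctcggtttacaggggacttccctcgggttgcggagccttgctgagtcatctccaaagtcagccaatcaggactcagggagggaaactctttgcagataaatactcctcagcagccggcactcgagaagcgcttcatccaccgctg
Sprr1a: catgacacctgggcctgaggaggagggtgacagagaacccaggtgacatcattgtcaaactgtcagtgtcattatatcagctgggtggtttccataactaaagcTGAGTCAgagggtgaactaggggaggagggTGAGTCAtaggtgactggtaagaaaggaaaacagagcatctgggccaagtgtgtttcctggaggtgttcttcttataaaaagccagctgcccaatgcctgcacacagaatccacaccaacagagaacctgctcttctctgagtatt

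Counted from the start of the gene, the first of these letters was base -41 in Trim30d, -36 in Trim30a, -20 in Clca3a1, -4 in Apol10b and -213 in Cxcl10. The Trim30d and Trim30a windows were identical in 277 of 305 aligned columns (90.8%), and Clca3a1 and its neighbour Clca3a2 in 176 of 347 (50.7%). Searched on both strands in the 300-base windows, GAAANNGAAA stood in 607 of 15614 measured genes with a window (3.89%), in 86 of 1905 genes above (4.51%) and in 32 of 1110 below (2.88%). Among genes above by at least 1 log2 it stood in 28 of 265 (10.6%), and below by as much in 7 of 173 (4.05%). TGANTCA stood in 31 of 265 (11.7%) and 18 of 173 (10.4%) of the same genes. Over all 32851 windows of the table the shares were 3.44% for GAAANNGAAA and 7.81% for TGANTCA. These are matches of letters in a short window, not measured binding.

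The 3 genes that mark these cultures had the largest differences among the genes above. Trim30d, a member of the interferon-inducible Trim30 family, lay at 11.46, 10.98 and 11.54 in the pre-osteoblast cultures, at 7.33, 7.22 and 7.31 in the osteoblast cultures and at 6.80, 6.28 and 4.84 in the tumour lines. The difference was 4.70 ± 0.37 (SE, n = 3 per group; limma adjusted p = 1.20e-04), a 25.9-fold higher level. Clca3a1, a secreted calcium-activated chloride channel regulator, lay at 10.56, 10.59 and 10.87 against 7.01, 7.36 and 7.16 in osteoblasts and 6.20, 5.95 and 5.66 in the tumour lines (4.12 ± 0.13; adjusted p = 6.44e-06). Its 3 pre-osteoblast values stood close together, far above the 6 others. Sprr1a, a small proline-rich protein of the cornified envelope that other stressed cells also make, lay at 10.79, 12.21 and 11.54 against 7.80, 8.08 and 8.05 and against 7.14, 7.21 and 7.29 (3.92 ± 0.26; adjusted p = 5.53e-05).

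Close relatives share sequence, so a probe set of one may also read another. Clca3a2 followed Clca3a1 with 10.30, 10.63 and 10.94 in pre-osteoblasts, against 7.11, 7.62 and 7.16 and against 6.98, 6.30 and 6.93 (3.61 ± 0.20; adjusted p = 3.38e-05). How far each reading belongs to one gene or the other was not tested. Of the 7 Clca genes, 4 were called higher and 0 lower (1 among genes with means above the median level), with small differences for Clca1 (0.28) and Clca3b (0.36). Apol10b, an apolipoprotein L gene, lay at 10.66, 9.99 and 10.44 against 6.78, 6.89 and 6.78 and against 7.29, 6.98 and 7.46 (3.33 ± 0.15; adjusted p = 2.17e-05). Apol6 lay at 10.75, 9.94 and 10.82 against 8.92, 8.88 and 8.49 and against 8.08, 7.79 and 8.92 (1.99 ± 0.28; adjusted p = 1.52e-03). In all, 4 of the 6 measured apolipoprotein L genes were called higher and 3 lay above all other arrays, and 2 were called among genes with means above the median level.

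Other genes at the top of the list belong to different processes. Serpinb6b, an intracellular protease inhibitor, lay at 12.04, 11.83 and 11.86 against 9.15, 9.88 and 9.17 and against 7.67, 7.44 and 9.27 (3.15 ± 0.38; adjusted p = 7.65e-04). Tgm5, a transglutaminase that cross-links proteins in skin, lay at 10.31, 9.12 and 9.78 against 6.76 to 7.13 in osteoblasts and 6.72 to 7.10 in the tumour lines (2.80 ± 0.23; adjusted p = 1.55e-04). Both sets of other arrays sat near the bottom of the scale for Tgm5. Brinp3 differed in kind: it lay at 11.19, 11.08 and 11.28 in pre-osteoblasts and 10.41, 10.53 and 10.34 in osteoblasts, but at 5.94, 6.41 and 6.13 in the tumour lines. Its difference of 2.89 ± 0.10 (adjusted p = 6.44e-06) was 0.76 against osteoblasts and 5.02 against osteosarcoma, and its call was lost with the 6 other arrays as 1 group (adjusted p = 0.212). Csf2rb, the signalling chain shared by the IL-3, IL-5 and GM-CSF receptors, lay at 9.60, 9.25 and 9.42 against 7.17, 7.40 and 7.31 and against 6.54, 6.18 and 6.55 (2.57 ± 0.11; adjusted p = 1.93e-05). Stat5a, which acts downstream of such receptors, lay at 10.89, 10.87 and 10.80 against 9.77, 9.88 and 9.54 and against 9.36, 9.30 and 9.44 (1.30 ± 0.08; adjusted p = 3.82e-05).

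**Figure D2:**
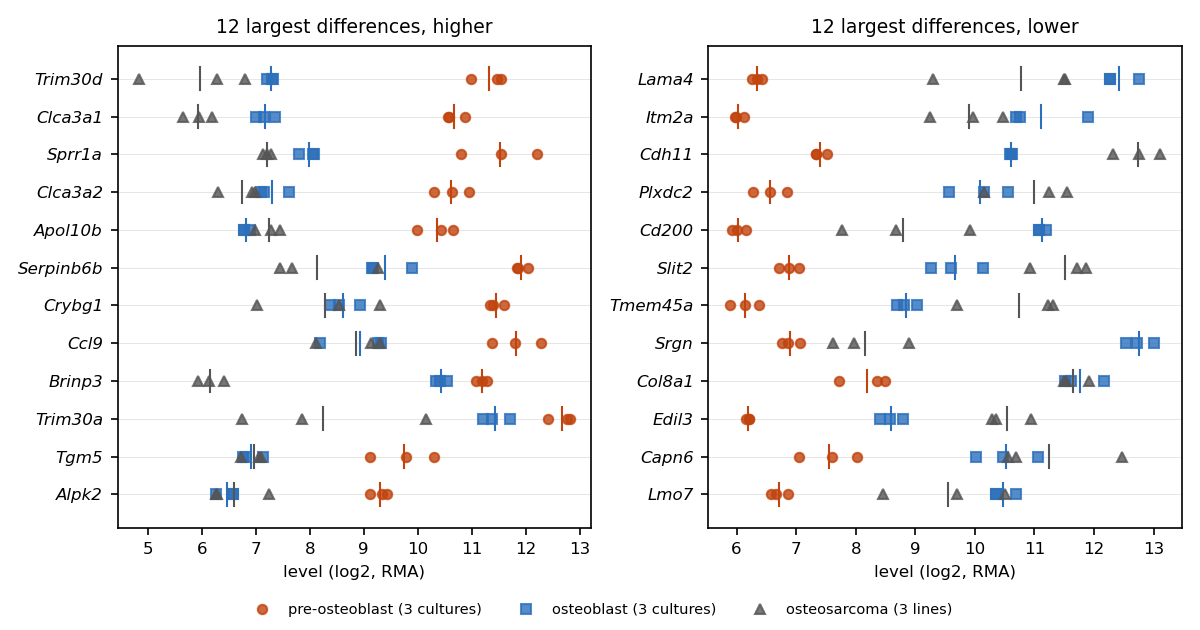
Log2 levels in each of the 9 arrays for the 12 called genes with the largest higher (left) and lower (right) differences, with small vertical ticks at the group means. The pre-osteoblast values stand apart in every row because the genes were chosen for no overlap. Osteoblasts and tumour lines lie together for Tgm5 and Col8a1 and far apart for Brinp3 and Srgn.

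Sprr1a and Tgm5 are known from skin, yet no general epithelial pattern came with them. Of 28 measured genes of the cornified envelope and keratinocytes, 3 were called higher and 0 lower, 4 lay above all other arrays and the median difference was 0.02, against 0.01 over all genes. Sprr1b reached 6.87, 6.74 and 6.50 against 6.22 to 6.35 in osteoblasts and 6.17 to 6.32 in the tumour lines, a difference of 0.42 ± 0.08. The keratins of basal skin stayed low in every array, with Krt5 between 6.79 and 6.94 and Krt14 between 6.75 and 7.04. Of 24 epithelial markers only Cdh3, P-cadherin, was called higher, at 10.55, 10.98 and 10.74 against 7.13, 7.45 and 7.42 and against 9.50, 9.94 and 9.92 (2.20 ± 0.13; adjusted p = 4.25e-05, lost with the 6 other arrays as 1 group at 0.104). Markers of blood cells gave 1 called gene of 16, Cd79a, with a difference of 0.29.

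Many genes of the interferon response were higher in pre-osteoblasts. Of 31 measured genes, 16 were called higher and 0 lower, and 18 lay above all other arrays, against 14.5% called higher and 11.6% above among all genes. The median difference was 1.51, made of 1.14 against osteoblasts, where 12 were called higher, and 1.71 against osteosarcoma, where 20 were. With the 493H array left out, 29 of the 31 were called higher. Over the whole list, pre-osteoblast arrays had median levels of 10.98, 10.01 and 10.95, against 9.81, 9.68 and 10.01 in osteoblasts and 10.07, 8.88 and 7.88 in the tumour lines. The second pre-osteoblast culture was the lowest of its group, and 493H was the highest tumour line.

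Among the transcription factors of the response, Irf7, which amplifies type I interferon, lay at 11.83, 10.61 and 11.80 against 9.63, 9.14 and 9.70 and against 9.46, 7.43 and 6.68 (2.74 ± 0.57; adjusted p = 9.45e-03; 5.02e-02 with the 6 other arrays as 1 group). Stat2 lay at 12.48, 11.68 and 12.26 against 10.77, 10.48 and 11.00 and against 10.59, 9.73 and 9.29 (1.83 ± 0.29; adjusted p = 2.64e-03). Irf9, its DNA-binding partner, lay at 11.88, 11.18 and 11.59 against 10.63, 10.51 and 10.77 and against 10.40, 9.67 and 9.49 (1.31 ± 0.22; adjusted p = 3.31e-03). Within the pre-osteoblast cultures, all 3 factors were lowest in the second. It exceeded each of the 6 other arrays, as the rule requires of genes above.

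Among the antiviral effectors and sensors, Dhx58 (LGP2, a cytosolic RNA sensor) lay at 12.18, 11.03 and 12.02 against 9.31, 9.20 and 9.66 and against 10.23, 8.78 and 7.83 (2.57 ± 0.48; adjusted p = 6.02e-03). Oas3, which makes the activator of RNase L, lay at 9.45, 8.34 and 9.90 against 7.24, 6.66 and 7.24 and against 7.15, 7.01 and 6.71 (2.23 ± 0.32; adjusted p = 1.56e-03). Mx1, listed as a transcribed pseudogene in the reference gene annotation, ranged widely between the pre-osteoblast cultures. It lay at 8.94, 6.91 and 10.03 against 6.35, 6.28 and 5.95 and against 6.36, 5.82 and 5.81 (2.53 ± 0.57; limma adjusted p = 1.34e-02, or 5.73e-02 without the first pre-osteoblast culture). Irgm1 (1.42 ± 0.18), the double-stranded RNA kinase Eif2ak2 (1.51 ± 0.24) and Irf1 (0.88 ± 0.13) were also called higher and above all other arrays. A dimmer probe set of Irf1 overlapped the other arrays, with a difference of 0.165. Classical members with wide spread were not called: Ifit1 differed by 1.74 ± 0.65 (adjusted p = 9.31e-02), Ifit3 by 1.68 ± 0.83 (adjusted p = 0.194), Usp18 by 1.74 ± 0.73 (adjusted p = 0.131) and Iigp1 by 2.17 ± 0.79 (adjusted p = 8.35e-02). Rtp4 and Oasl2 lay above all other arrays but were not called (adjusted p = 5.17e-02 and 5.92e-02).

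**Figure D3:**
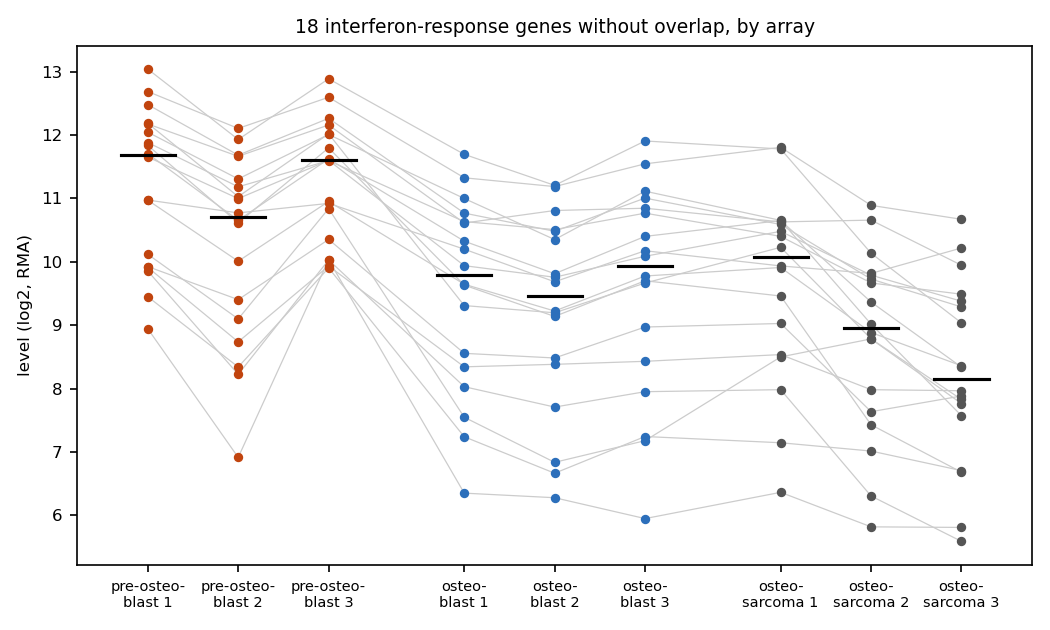
Log2 levels of the 18 interferon-response genes with no overlap, in each of the 9 arrays; lines join the values of 1 gene and black bars are the medians. Pre-osteoblast medians were 11.68, 10.71 and 11.60, against 9.79, 9.45 and 9.93 in osteoblasts and 10.08, 8.95 and 8.15 in the tumour lines, so the second pre-osteoblast culture was the lowest of its group and 493H the highest tumour line.

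The ligands and receptors of the pathway did not move with its targets. Ifnb1, interferon beta, lay at 5.61, 5.52 and 5.65 against 5.47, 5.77 and 5.53 and against 5.69, 5.61 and 5.63, a difference of -0.02 ± 0.07. Of 13 measured interferon ligands and receptors, 0 were called higher and 3 lower. Ifnar1, a chain of the type I receptor, lay at 10.45, 10.26 and 10.34, below 10.65 to 10.75 in osteoblasts and 10.68 to 11.10 in the tumour lines (-0.46 ± 0.09; adjusted p = 8.37e-03). Ifngr2, a chain of the interferon gamma receptor, lay at 11.68, 11.68 and 11.65 against 12.13, 12.00 and 12.17 and against 12.11, 11.96 and 11.84 (-0.37 ± 0.07; adjusted p = 5.36e-03).

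Genes that sense nucleic acids or carry the signal were called higher in 13 of 26 measured genes and lower in 1, against 14.5% and 9.63% of all genes. Of the 26, 12 lay above and 1 below all other arrays, against 11.6% and 7.28% of all genes. With the 6 other arrays as 1 group, 7 were called higher. Irf5, a factor downstream of Toll-like receptors, lay at 9.63, 10.02 and 9.90 against 7.09, 7.16 and 7.02 and against 7.50, 7.95 and 7.85 (2.42 ± 0.12; adjusted p = 2.25e-05). The groups were more than 1 log2 apart and the cultures close together. Smaller differences were seen for Unc93b1, which carries Toll-like receptors to endosomes (1.06), Samhd1, which depletes nucleotides (0.69), and the kinase Ikbke (0.63). Tlr8 was the gene called lower (-0.67; adjusted p = 7.29e-03). This list and that of ligands and receptors were chosen after the values were seen.

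Antigen processing for MHC class I is also under interferon control. Of 16 measured genes, 8 were called higher and 2 lower, against 14.5% and 9.63% of all genes. The lower ones were Pdia3 (-0.34) and Calr (-0.26), chaperones of the endoplasmic reticulum that help to load MHC class I. Tap1, a subunit of the peptide transporter, lay at 10.63, 9.72 and 10.62 against 8.80, 8.65 and 8.80 and against 8.80, 7.99 and 7.88 (1.84 ± 0.26; adjusted p = 1.51e-03). The proteasome activator genes Psme1 (1.07 ± 0.13) and Psme2 (0.75 ± 0.08), the tapasin genes Tapbp (1.04) and Tapbpl (0.73) and the immunoproteasome subunit Psmb9 (1.01) were also called higher. B2m, the MHC class I light chain, lay at 13.63, 13.45 and 13.63 against 13.94, 13.80 and 13.95 and against 13.56, 13.36 and 13.47, between the other groups.

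In the Trim30 and Ifi200 gene clusters, 6 of 11 measured genes were called higher and 0 lower, against 14.5% and 9.63% of all genes. With the 6 other arrays as 1 group, 3 were called. Trim30a, a brake on Toll-like receptor signalling, lay at 12.81, 12.42 and 12.77 against 11.37, 11.20 and 11.70 and against 10.14, 7.87 and 6.74 (2.83 ± 0.62; adjusted p = 1.18e-02; 0.165 with the 6 other arrays as 1 group). Trim21, an intracellular antibody receptor (1.33 ± 0.25; adjusted p = 5.48e-03), and Trim6 (0.53 ± 0.06; adjusted p = 7.98e-04) also lay above all other arrays. Counted per measured gene with a window, GAAANNGAAA stood in 8 of 11 genes of these clusters and 13 of 21 of the interferon list. That list had 31 measured genes, and those without a window were not searched. The letters stood in 1 of 16 genes of the cholesterol list and 2 of 30 of the mitosis list.

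**Figure D4:**
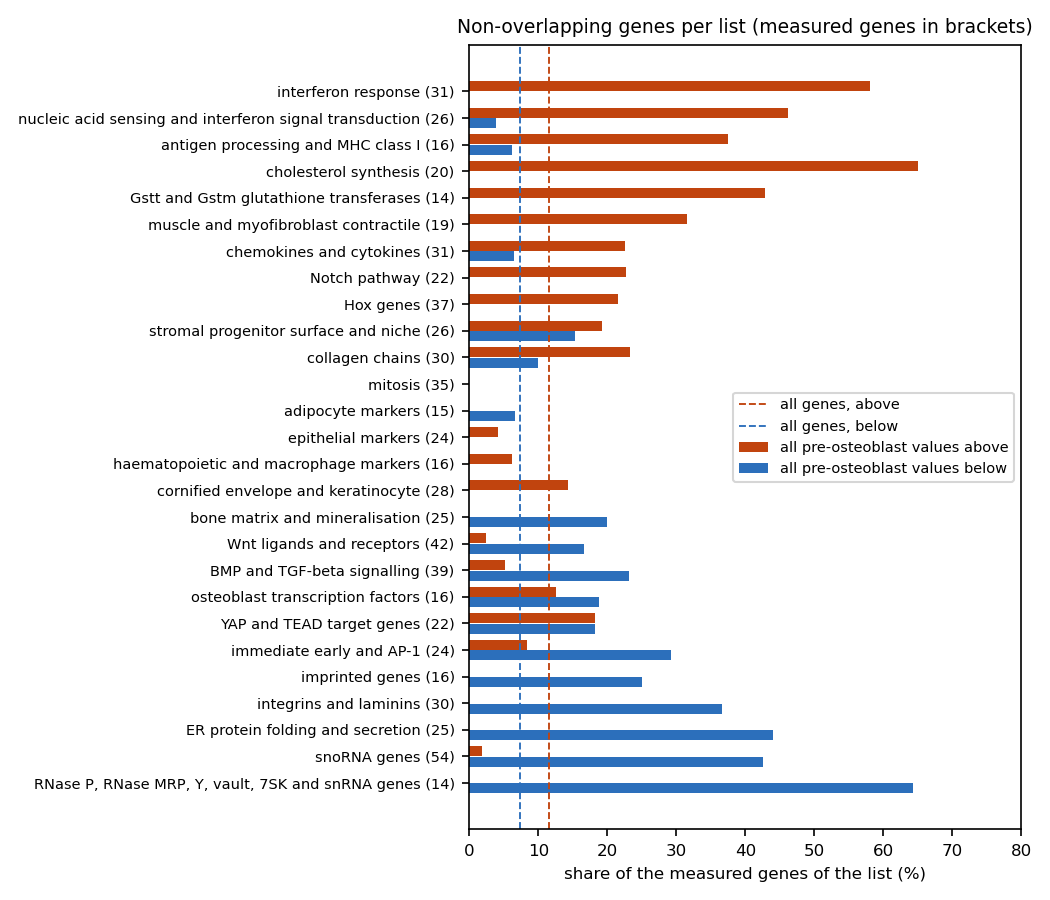
Share of the measured genes of each list (number in brackets) whose 3 pre-osteoblast values lie all above (orange) or all below (blue) the 6 others, with dashed lines at the shares among all genes, 11.6% above and 7.28% below. Interferon and cholesterol lists exceed the line above, RNA-processing and secretory lists the line below, and mitosis has no such gene.

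Cholesterol synthesis was higher in nearly every step measured. Of 20 measured genes, 19 were called higher and 0 lower, 13 lay above all other arrays, and the median difference was 1.20. Among all genes 14.5% were called higher, 9.63% lower, and 11.6% lay above. The size came mainly from osteoblasts: 19 genes were called higher against osteoblasts and 8 against osteosarcoma. With the 6 other arrays as 1 group 5 were called. Nsdhl, a sterol dehydrogenase, lay at 13.08, 12.94 and 12.99 against 10.11, 10.55 and 9.89 and against 11.88, 11.96 and 11.83 (1.97 ± 0.13; adjusted p = 5.08e-05). Tm7sf2, a sterol reductase, lay at 11.82, 11.38 and 11.58 against 8.20, 8.63 and 8.07 and against 9.85, 9.85 and 9.94 (2.50 ± 0.13; adjusted p = 2.94e-05). Both genes had the same order of groups, with tumour lines between the Kusa4b10 states.

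Idi1, the isopentenyl diphosphate isomerase, lay at 12.15, 12.19 and 12.22 against 8.08, 9.29 and 7.90 and against 11.45, 11.78 and 11.40. Its difference of 2.20 ± 0.28 (adjusted p = 9.05e-04; 0.210 with the 6 other arrays as 1 group) was 3.76 against osteoblasts and 0.64 against osteosarcoma. Lss (1.87 ± 0.20), Dhcr7 (1.84), Cyp51 (1.77) and the rate-setting squalene epoxidase Sqle (1.22) were called higher as well. The pathway's own regulators were raised less, Srebf2 by 0.85 ± 0.11 and Insig1 by 0.66 ± 0.12. Ebp, with a difference of -0.20, was the one measured gene not called.

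Among chemokines and cytokines, 8 of 31 measured genes were called higher and 2 lower, against 14.5% and 9.63% of all genes. With the 6 other arrays as 1 group 4 were called higher, without the third pre-osteoblast culture 3, and without the first or the second 5. Ccl9, a chemokine for myeloid cells and osteoclast precursors, lay at 12.29, 11.38 and 11.79 against 9.32, 8.20 and 9.25 and against 9.13, 8.12 and 9.31 (2.93 ± 0.35; adjusted p = 7.50e-04). Cxcl10, an interferon-induced chemokine, lay at 10.12, 9.10 and 10.84 against 7.55, 6.84 and 7.18 and against 8.50, 8.78 and 7.76 (2.25 ± 0.38; adjusted p = 3.60e-03). The lowest pre-osteoblast value of Cxcl10 was again that of the second culture. Il6 lay at 7.69, 7.45 and 7.29 against 5.51, 5.41 and 5.18 and against 6.57, 5.31 and 7.14 (1.62 ± 0.34; adjusted p = 1.02e-02; 5.28e-02 with the 6 other arrays as 1 group). Cxcl12, the marrow chemokine that holds blood stem cells, was high everywhere, at 13.44, 13.06 and 13.26 against 12.72, 12.31 and 12.35 and against 12.66, 12.13 and 12.90 (0.74 ± 0.18; adjusted p = 1.72e-02). Lif (-0.33) and Il34 (-0.36) were the genes called lower. Il1rn, the interleukin-1 receptor antagonist, was called higher by 1.67 ± 0.50 (adjusted p = 4.42e-02), a call lost without any 1 of the pre-osteoblast cultures (adjusted p = 9.59e-02 to 0.152).

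Glutathione transferases of the Gstt and Gstm classes conjugate glutathione to reactive compounds. Of 14 measured genes, 5 were called higher and 0 lower, against 14.5% and 9.63% of all genes, and 8 were called without the 494H array. This list was also chosen after the values were seen. Mgst2, a microsomal enzyme, lay at 10.52, 10.11 and 10.18 against 8.30, 7.84 and 7.92 and against 7.80, 7.13 and 8.89 (2.29 ± 0.33; adjusted p = 1.74e-03). Gstt3 lay at 10.82, 10.82 and 10.61 against 9.85, 9.49 and 9.82 and against 8.90, 7.75 and 9.16 (1.59 ± 0.28; adjusted p = 4.33e-03; 5.04e-02 with the 6 other arrays as 1 group). Its neighbour Gstt1 lay above all other arrays without a call (1.57 ± 0.52; adjusted p = 6.17e-02). Cbr2, a carbonyl reductase, lay at 13.47, 13.01 and 13.30 against 11.12, 11.87 and 11.02 and against 9.21, 9.84 and 10.78 (2.62 ± 0.33; adjusted p = 9.60e-04).

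Genes of contractile cells included 7 of 19 called higher and 0 lower, against 14.5% and 9.63% of all genes. Without any 1 of the pre-osteoblast cultures, or with the 6 other arrays as 1 group, 3 were called. Without the second osteoblast culture, 11 were called. Against osteoblasts alone 13 of the 19 were called higher and 0 lower, with a median difference of 0.85. Against osteosarcoma 3 were called higher and 2 lower, with a median of 0.09. Ldb3, a Z-disc protein of muscle, lay at 10.19, 9.86 and 10.02 against 7.88, 8.01 and 7.84 and against 7.48, 7.65 and 8.04 (2.21 ± 0.13; adjusted p = 3.38e-05). Ankrd1 (0.99 ± 0.21) and Myocd, the coactivator of smooth-muscle genes (0.62 ± 0.10), also lay above all other arrays. Myl9 was called at 1.07 ± 0.32 (adjusted p = 4.43e-02), and that call was lost without any 1 of the pre-osteoblast cultures (adjusted p = 9.25e-02 to 0.157).

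Markers of marrow stromal progenitors went both ways: 4 of 26 were called higher and 8 lower, against 14.5% and 9.63% of all genes. With the 6 other arrays as 1 group, 1 was called in each direction. Angpt1, a niche ligand for the Tie2 receptor, lay at 11.82, 11.14 and 11.44 against 10.87, 10.85 and 10.46 and against 9.40, 9.18 and 9.59 (1.41 ± 0.17; adjusted p = 6.60e-04; 7.62e-02 with the 6 other arrays as 1 group). Prrx1, a mesenchymal transcription factor (0.50), and Pdgfrb, a receptor of stromal cells (0.36), were called higher by less than 1 log2. Cd200, an immune-modulating surface protein, was close to the bottom of the scale in pre-osteoblasts, at 6.15, 6.01 and 5.93, against 11.08, 11.20 and 11.08 and against 7.77, 8.67 and 9.93 (-3.92 ± 0.38; adjusted p = 2.99e-04). Nt5e (CD73), a surface enzyme used to define mesenchymal stromal cells, lay at 6.80, 7.01 and 6.88 against 9.71, 10.94 and 9.83 and against 7.11, 7.70 and 8.37 (-2.04 ± 0.33; adjusted p = 2.79e-03; 0.154 with the 6 other arrays as 1 group). Without the first pre-osteoblast culture, 2 genes were called higher and 5 lower.

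Among Hox genes, which set position along the body, 7 of 37 were called higher and 2 lower, against 14.5% and 9.63% of all genes, with a median difference of 0.04. Of the 37, 8 lay above and 0 below all other arrays, or 3 called higher with the 6 other arrays as 1 group. Hoxc13 lay at 10.07, 10.28 and 9.69 against 8.46, 8.41 and 8.42 and against 8.69, 7.41 and 8.45 (1.71 ± 0.26; adjusted p = 2.31e-03). Hoxb6 (0.75), Hoxb5 (0.71) and Hoxb3 (0.50) were called too. Of 22 genes of the Notch pathway, 6 were called higher and 2, the target genes Hes1 (-1.78) and Hey1 (-0.76), lower, with a median difference of 0.03. Notch1, a receptor, lay at 10.50, 10.44 and 10.42 against 9.74 in each osteoblast culture and against 9.09, 8.67 and 9.15 (1.10 ± 0.10; adjusted p = 2.21e-04), and Lfng, which modifies it, differed by 1.59 ± 0.18 (adjusted p = 5.17e-04). Among growth factors, Nrg1, a ligand of ERBB receptors, lay at 10.70, 10.85 and 10.77 against 8.64, 8.62 and 8.83 and against 10.02, 10.16 and 10.20 (1.36 ± 0.07; adjusted p = 2.75e-05; 8.57e-02 with the 6 other arrays as 1 group). Igf1 went the other way (-2.44 ± 0.21; adjusted p = 1.86e-04), with no pre-osteoblast value above 7.25 and no other value under 9.16.

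The largest differences below all other arrays included genes of adhesion and matrix, named here for their size. Lama4, a laminin chain of basement membranes, lay at 6.25, 6.34 and 6.42 against 12.26, 12.75 and 12.27 in osteoblasts and 11.50, 9.30 and 11.51 in the tumour lines (-5.26 ± 0.46; adjusted p = 1.87e-04). Cdh11, the osteoblast cadherin, lay at 7.34, 7.33 and 7.51 against 10.62, 10.60 and 10.59 and against 12.75, 12.32 and 13.12 (-4.28 ± 0.15; adjusted p = 6.44e-06). Lama4 was farther from osteoblasts (-6.09) than from tumour lines (-4.43), and Cdh11 the other way round (-3.21 and -5.34). Itm2a, a membrane protein of chondro-osteogenic cells, lay at 5.99, 5.97 and 6.12 against 10.75, 11.90 and 10.70 and against 9.97, 9.24 and 10.47 (-4.48 ± 0.32; adjusted p = 8.57e-05). Col8a1, a short-chain collagen, lay at 7.73, 8.50 and 8.36 against 11.62, 12.17 and 11.51 and against 11.54, 11.92 and 11.50 (-3.51 ± 0.21; adjusted p = 4.01e-05).

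Secreted guidance and signalling genes followed. Slit2, a ligand of Robo receptors, lay at 6.88, 7.05 and 6.72 against 10.13, 9.26 and 9.60 and against 11.72, 10.93 and 11.87 (-3.70 ± 0.25; adjusted p = 5.53e-05). Ptgis, the prostacyclin synthase, lay at 7.61, 7.54 and 7.72 against 11.76, 11.94 and 11.46 and against 10.28, 9.98 and 9.57 (-3.21 ± 0.16; adjusted p = 2.61e-05). Srgn, a proteoglycan of secretory granules, was mainly an osteoblast gene here, at 7.06, 6.76 and 6.87 against 12.53, 13.01 and 12.72 and against 8.89, 7.62 and 7.97. Its difference of -3.56 ± 0.25 (adjusted p = 7.81e-05) was lost with the 6 other arrays as 1 group (adjusted p = 0.157). Spry1, an inhibitor of receptor tyrosine kinase signalling, lay at 7.78, 7.48 and 7.48 against 12.03, 11.88 and 12.28 and against 9.21, 9.27 and 9.19 (-3.07 ± 0.10; adjusted p = 6.44e-06; 5.54e-02 with the 6 other arrays as 1 group). Edil3, an integrin ligand, was lower (-3.37 ± 0.15; adjusted p = 1.93e-05), and so was Plxdc2, a membrane receptor (-3.98 ± 0.33; adjusted p = 1.50e-04).

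Integrins and laminins, the receptors and ligands of cell-matrix adhesion, had 13 of 30 measured genes called lower and 0 higher, 11 below all other arrays and a median difference of -0.36, against 9.63% called lower and 7.28% below among all genes. With the 6 other arrays as 1 group, 7 were called. Lama2, a muscle-type laminin chain, lay at 7.24, 7.17 and 7.49 against 10.12, 10.05 and 10.69 and against 8.79, 9.24 and 8.88 (-2.33 ± 0.16; adjusted p = 7.30e-05). Itga11, a collagen-binding integrin, lay at 8.70, 8.51 and 8.02 against 10.30, 10.96 and 10.40 and against 9.66, 10.49 and 11.99 (-2.22 ± 0.45; adjusted p = 8.40e-03). Itgb3, a vitronectin receptor chain, was lower (-1.17 ± 0.15). Even Itgb1, the common beta chain, lay below, at 12.12, 11.89 and 11.95 against 12.32, 12.33 and 12.36 and against 12.45, 12.32 and 12.40 (-0.38 ± 0.06). Timp3, a matrix-bound metalloprotease inhibitor, lay at 11.21, 11.24 and 10.82 against 12.99, 13.10 and 13.12 and against 12.84, 12.49 and 12.58 (-1.77 ± 0.11; adjusted p = 4.93e-05).

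Bone matrix and mineralisation genes were called lower in 11 of 25 measured genes and higher in 0, against 9.63% and 14.5% of all genes. Of the 25, 5 (20%) lay below all other arrays, against 7.28% of all genes. With the 6 other arrays as 1 group, 2 were called. The strongest markers belonged to osteoblasts alone: Ibsp differed by -6.97 from osteoblasts and -0.79 from the tumour lines, and Dmp1 by -4.26 and 0.04. Alpl, alkaline phosphatase, had no overlap, at 9.28, 8.09 and 7.82 against 11.80, 13.01 and 11.66 and against 9.69, 10.22 and 12.37 (-3.07 ± 0.62; adjusted p = 8.67e-03). The array labelled 716H reached the osteoblast range for Alpl, and 493H lay just above the first pre-osteoblast culture. Col1a1, the main bone collagen chain, was not called (0.22). Runx2, Spp1 and the Bglap genes were not analysed here.

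Of 16 osteoblast transcription factors, 2 were called higher and 5 lower, against 14.5% and 9.63% of all genes. With the 6 other arrays as 1 group, 0 were called higher and 3 lower. Zfp521, a zinc finger factor of the osteoblast lineage, lay at 7.97, 7.65 and 7.39 against 9.13, 9.44 and 9.09 and against 11.53, 10.93 and 11.26 (-2.56 ± 0.16; adjusted p = 4.93e-05). Mef2c, a factor of osteocytes, chondrocytes and muscle, lay at 6.94, 6.91 and 6.83 against 9.96, 10.61 and 9.29 and against 8.31, 8.44 and 9.06 (-2.38 ± 0.27; adjusted p = 6.04e-04). Cbfb, the partner of Runx factors, was lower (-0.45 ± 0.06). Snai2 was called higher by 0.84 ± 0.18, a call lost without the first pre-osteoblast culture (adjusted p = 5.27e-02). Sp7, whose promoter drives Cre in the tumour model, overlapped and was not called (-1.09).

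Wnt ligands and receptors were lower in 9 of 42 measured genes and higher in 1, with 7 below all other arrays, or 4 lower with the 6 other arrays as 1 group. Rspo3, a secreted amplifier of Wnt signalling, lay at 6.69, 6.80 and 6.88 against 10.23, 9.64 and 9.94 and against 9.31, 8.36 and 8.29 (-2.51 ± 0.23; adjusted p = 2.27e-04). Wnt5a, a non-canonical ligand, lay at 5.97, 6.05 and 5.99 against 6.73, 6.67 and 6.73 and against 9.31, 8.57 and 9.36 (-1.89 ± 0.16; adjusted p = 1.68e-04; 0.148 with the 6 other arrays as 1 group). Lrp4, a sclerostin-binding receptor, was lower (-1.41 ± 0.18). Wnt2 was the ligand called higher (0.47 ± 0.13). Of 26 Wnt antagonists, 2 were called higher and 4 lower, against 14.5% and 9.63% of all genes. Without any 1 of the pre-osteoblast cultures, 0 were called higher and 1 lower.

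BMP and TGF-beta signalling had 5 of 39 measured genes called higher and 7 lower, against 14.5% and 9.63% of all genes. Of the 39, 2 lay above and 9 below all other arrays, against 11.6% and 7.28% of all genes. Tgfbr1, the type I receptor, lay at 9.69, 9.54 and 9.43 against 11.16, 10.88 and 11.19 and against 10.26, 10.14 and 10.02 (-1.06 ± 0.09; adjusted p = 2.01e-04; 5.65e-02 with the 6 other arrays as 1 group). Its partner Tgfbr2 was lower (-0.48 ± 0.04). Chrdl1, an extracellular BMP antagonist, was lower (-2.26 ± 0.31; adjusted p = 1.26e-03). Inhbb, an activin chain (1.28 ± 0.17), and Bmp4 (0.83) were called higher. Without the 494H array, 11 genes were called lower. With the 6 other arrays as 1 group, 1 gene was called higher and 3 lower.

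Protein folding genes of the endoplasmic reticulum were mostly lower. Of 25 measured genes, 19 were called lower and 1 higher, 11 lay below all other arrays and the median difference was -0.63. Among all genes 9.63% were called lower, 14.5% higher, and 7.28% lay below. Against osteoblasts 21 of the 25 were called lower and 1 higher, with a median difference of -1.02. Against osteosarcoma 8 were called lower and 1 higher, with a median of -0.20. Sdf2l1, a cofactor of chaperones there, lay at 10.15, 10.69 and 10.34 against 12.83, 12.67 and 13.16 and against 11.20, 11.25 and 10.93 (-1.61 ± 0.15; adjusted p = 2.28e-04; 0.104 with the 6 other arrays as 1 group). Hspa5 (BiP), the main chaperone, lay at 13.12, 12.99 and 12.92 against 14.05, 13.93 and 14.12 and against 13.34, 13.27 and 13.32 (-0.66 ± 0.06; adjusted p = 2.43e-04). Pdia6, a disulfide isomerase, was lower (-1.08 ± 0.09). The tumour lines stood between the Kusa4b10 states for Sdf2l1 and Hspa5. With the 6 other arrays as 1 group, 2 of the 25 were called lower.

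Immediate early genes, which respond quickly to growth signals, were lower in 12 of 24 measured genes and higher in 4, with 7 lower calls left without the first pre-osteoblast culture and 6 without the second, and 5 with the 6 other arrays as 1 group. Klf4 lay at 8.84, 8.65 and 8.56 against 11.12, 11.36 and 11.37 and against 10.61, 9.51 and 9.34 (-1.86 ± 0.25; adjusted p = 1.28e-03). Dusp5, a phosphatase of ERK, was called higher by 1.04 ± 0.11. YAP and TEAD targets, which follow cell shape and stiffness, split into 6 higher and 5 lower of 22, or 3 and 1 with the 6 other arrays as 1 group. Over all genes, 14.5% were called higher and 9.63% lower. Ccn2 (CTGF), a matrix-associated target, lay at 9.05, 9.31 and 8.85 against 11.84, 11.65 and 11.32 and against 12.04, 11.46 and 12.21 (-2.68 ± 0.19; adjusted p = 6.91e-05). Wwc1 (1.24), Arhgef17 (1.06 ± 0.06) and Ajuba (0.87), by contrast, were called higher.

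Genes of small structural RNAs were mostly lower in pre-osteoblasts. Of 54 measured genes of small nucleolar RNAs, which guide modification of ribosomal RNA, 34 were called lower and 3 higher, 23 lay below and 1 above all other arrays, and the median difference was -0.57. Among protein-coding genes, 1812 of 18565 were called lower. Against osteoblasts 35 of the 54 genes were called lower and 1 higher, with a median difference of -0.91. Against osteosarcoma 24 were called lower and 5 higher, with a median of -0.33. Of 14 genes for the RNAs of RNase P, RNase MRP, Y particles, vaults, the 7SK particle and the spliceosome, 10 were called lower and 0 higher. Both groups were formed after the values were seen.

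Snord35a lay at 8.69, 8.98 and 8.84 against 12.23, 12.21 and 12.22 and against 11.81, 11.85 and 11.56 (-3.14 ± 0.08; adjusted p = 3.69e-06). Snora16a lay at 9.54, 8.77 and 9.31 against 11.86, 11.91 and 12.10 and against 11.64, 11.67 and 11.73 (-2.61 ± 0.15; adjusted p = 3.62e-05). Osteoblasts and tumour lines were close to each other for both. Over the 54 small nucleolar RNA genes, however, osteoblasts lay above tumour lines by a median of 0.69. Rpph1, the RNA of RNase P, which trims tRNA precursors, lay at 11.29, 10.98 and 11.38 against 13.12, 12.93 and 13.17 and against 12.91, 13.16 and 13.13 (-1.85 ± 0.10; adjusted p = 3.38e-05). Vaultrc5, a vault RNA, lay at 6.99, 6.06 and 6.92 against 9.33, 8.87 and 9.82 and against 8.91, 9.75 and 9.94 (-2.78 ± 0.31; adjusted p = 5.77e-04). Rny1, a Y RNA, was lower (-2.20 ± 0.27), Rny3 less so (-0.67) and Rn7sk slightly (-0.21). A further probe set of Rn7sk overlapped the other arrays, with a difference of -0.054.

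Probe sets for such short RNAs may also read their precursors or host transcripts, which these values do not separate. Gas5, the host gene of several small nucleolar RNAs, lay at 9.76, 10.20 and 10.05 against 11.59, 11.34 and 11.57 and against 10.99, 11.22 and 10.62 (-1.22 ± 0.14; adjusted p = 6.93e-04). Its other probe sets overlapped the other arrays, with differences of -0.26 to -0.33.

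**Figure D5:**
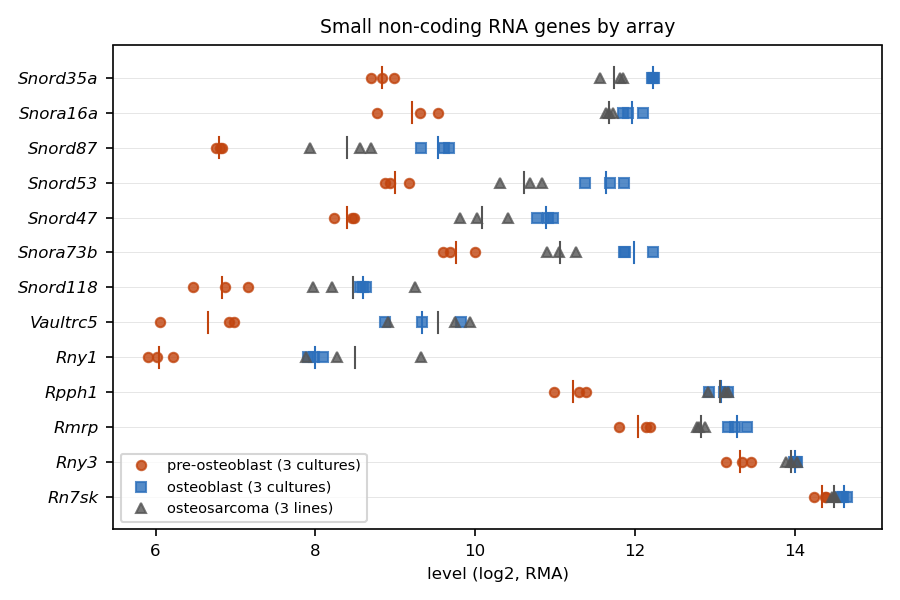
Log2 levels of 13 small RNA genes in each of the 9 arrays, with ticks at the group means. The genes were taken from those below all other arrays, so the 3 pre-osteoblast values lie to the left in every row by selection. Differences ran from -3.14 for Snord35a to -0.21 for Rn7sk.

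MicroRNA genes showed no such shift as a group: of 297 measured, 20 were called higher and 10 lower, and 19 lay above and 10 below all other arrays. The last 2 counts are 6.40% and 3.37%, under the 11.6% and 7.28% of all genes. The 5 called genes with at least 1 log2 were Mir145a, Mir130a and Mir3068 above and Mir218-1 and Mir568 below. To show what these genes encode, 7 mature miRNAs of 4 of them are given from RefSeq (build GRCm38.p6), with the seed, bases 2 to 8, which pairs with targets, in capitals. All 7 seeds differ.
miR-130a-3p: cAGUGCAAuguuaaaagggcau
miR-130a-5p: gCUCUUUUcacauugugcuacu
miR-3068-3p: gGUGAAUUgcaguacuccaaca
miR-3068-5p: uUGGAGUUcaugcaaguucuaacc
miR-218-5p: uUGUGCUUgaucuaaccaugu
miR-218-1-3p: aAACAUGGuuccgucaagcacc
miR-568: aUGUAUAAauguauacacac

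Mir145a, known from smooth muscle, lay at 10.08, 9.40 and 10.06 against 8.72, 9.16 and 8.34 and against 7.68, 8.25 and 8.57 (1.39 ± 0.25; adjusted p = 5.28e-03). Mir130a lay at 6.87, 6.33 and 5.98 against 5.27, 5.51 and 5.16 and against 5.52, 5.43 and 4.95 (1.09 ± 0.20; adjusted p = 6.03e-03). Mir218-1, which lies within Slit2, lay at 6.37, 6.34 and 6.39 against 7.58, 7.19 and 7.09 and against 7.93, 7.36 and 8.14 (-1.18 ± 0.17; adjusted p = 1.72e-03). Its host was lower in the same cultures, as given above. Mir568 lay at 8.11, 7.96 and 7.90 against 9.09, 8.93 and 9.14 and against 9.10, 9.23 and 8.93 (-1.08 ± 0.08; adjusted p = 1.07e-04). The probe sets read the gene, precursor or host transcript, and mature miRNA was not measured apart from these.

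Groups that separate the Kusa4b10 states strongly can be absent from the genes without overlap. All 35 measured mitosis genes were called higher in pre-osteoblasts than in osteoblasts and 0 against osteosarcoma. Against the mean of both, 15 were called, or 0 with the 6 other arrays as 1 group, 1 without the second or the third pre-osteoblast culture and 30 without the second osteoblast culture, and 0 of the 35 lay above all other arrays. Adipocyte markers were lower than in osteoblasts in 10 of 15 genes, with 1 gene below all other arrays, Dgat2 (-0.98 ± 0.14). Cd36, a fatty acid transporter, differed by -5.28 from osteoblasts and by -0.03 from the tumour lines.

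Further probe sets of the same genes gave a second reading on the same arrays. Of 227 further probe sets of 119 genes above, 122 (53.7%) had no overlap in the same direction, 2 in the opposite one and 103 overlapped. Of 286 further probe sets of 127 genes below, 120 (42.0%) lay below, 3 above and 163 overlapped. These are unevenly spread over genes. Among genes below, Hmcn1, with a difference of -0.18, had the most, and most of its probe sets overlapped. Genes that overlapped in the main reading had 5.46% of 1338 further probe sets above and 5.23% below. Gas5 is a case of disagreement, since its other probe sets overlapped the other arrays and differed by only -0.26 to -0.33.

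Some genes formed runs with neighbours of the same direction. In the reference gene order, 82 runs of at least 3 neighbours, 283 genes in all, lay above, and 26 runs of 83 genes below. Among all genes 11.6% lay above and 7.28% below, so some runs arise from these shares alone, and how many was not tested. Genes in a run need not be called: Stat5b, Stat3 and Vipas39 were not (limma adjusted p = 0.151, 6.48e-02 and 7.09e-02). Psme1, Psme2 and Irf9 lay above in a run with Emc9 and Rnf31, and the receptor genes Ifnar1 and Ifngr2 lay below in a run with Tmem50b and Dnajc28. Further runs above were Cabin1, Ddt, Gstt3, Gstt1 and Gstt4, the chemokine run of Ccl9, E230016K23Rik, Ccl6 and Ccl3, the run of Hoxb6, Hoxb5, Hoxb3 and Mir10a, and that of Stat5b, Stat5a, Stat3 and Cavin1. Mir3068 lay in a run of 6, with Vipas39, Ahsa1, Ism2, Sptlc2 and Slirp. The Gstt, Ccl, Hox and Stat5 neighbours are relatives by sequence, which probes may share.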

How the data were processed

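RNA of 9 samples was measured on 1 array each. For each probe set the authors deposited a log2 level. The submitters' processing notes name RMA and the build mm9, and no version, filter or scan date is given in the sources used here. This method normalizes between arrays, so differences are relative to the other genes, and it compresses differences of dim genes. The number of arrays limits the precision.

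Of 35556 probe sets, 21789 had 1 gene symbol in the platform annotation, 1621 several and 12146 none; 21698 matched the reference gene table by identifier, which changed 0 symbols. Genes with over 1 probe set (999) were read from the one with the highest mean, which left 19938 genes. No pair of arrays shared more than 4.33% of its values.

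Means of the 3 groups were fitted to all genes at once with limma 3.58.1 (R 4.3.3), moderated with 2.19 prior beside 6 residual degrees of freedom, and tested two-sided, with Benjamini-Hochberg adjustment over all genes and calls at an adjusted p below 0.05. Tables were made with Python 3.11.15 and pandas 2.3.3. Values after ± are standard errors from this fit with n = 3 per group. The labels call the Kusa4b10 samples independent. The p-values and standard errors rest on 1 spread per gene, pooled over the cultures of 1 line and the 3 tumour lines. Median standard deviations were 0.087 in pre-osteoblasts, 0.082 in osteoblasts and 0.118 in tumour lines. For Trim30a they were 0.22, 0.26 and 1.73, so the spread between tumour lines can set most of the error.

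The genes, lists and tests were chosen with earlier results of these data known. Named genes are Trim30d, Sprr1a and Clca3a1, up to 20 called genes without overlap with the largest difference in each direction whose higher group mean exceeds the median gene mean (7.97), up to 4 such genes per list, and further list genes. Lists without a paragraph of their own are in the closing section. Promoter and miRNA sequences are from RefSeq (GRCm38.p6), matched by symbol. The model was tested on simulated data. Alternatives were filters on dim genes, the mean of probe sets, other scalings, a variance trend, group weights, the 6 other arrays as 1 group, a replicate block and leaving out each array. Trp53, Cdkn1a, Runx2, Spp1 and the Bglap genes were not analysed here.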

Additional observations from a re-analysis of the deposited data

Results flagged for a closer look

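Probe sets without a gene name, or with several, took no part in the comparisons, yet some separated the pre-osteoblast cultures in the same way. Of 12146 probe sets with no gene symbol, 1076 (8.86%) had all 3 pre-osteoblast values above the 6 others and 661 (5.44%) had all 3 below. Of 1621 probe sets with several symbols, 128 (7.90%) lay above and 113 (6.97%) below. Named genes reached 11.6% above and 7.28% below.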

How the results depend on the processing

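With the 6 other arrays as 1 group, whose own difference then counts as spread, 1415 genes were called higher and 687 lower; without the third pre-osteoblast culture 1155 were called lower, and the cause was not tested. Leaving out 1 array at a time gave 2102 to 3252 genes higher, 1155 to 2131 lower, 2417 to 2889 above and 1531 to 2128 below all other arrays, 3804 to 5881 called against osteoblasts and 3364 to 4686 against osteosarcoma. The replicate numbers of the Kusa4b10 cultures are shared only as numbers: deviations of same-numbered cultures correlated at 0.152, 0.176 and 0.0278. With a replicate block 2955 genes were called higher and 1964 lower, and 5883 against osteoblasts, and each pre-osteoblast culture correlated best with its own number, a hint from the data and not from the design. Quantile normalization again shifted the median difference by -0.039 and centring by -0.018, and the share of calls that were higher was 60.1% as deposited, 51.8% and 56.3%. Of 225 named genes, 0 changed direction in an alternative when called there or in the main fit. Sign changes of genes called in neither were not counted. A gene without overlap keeps its direction by the rule when 1 array is left out. Of the 173 called, 74 lost the call in at least 1 alternative, of which 42 only with the 6 other arrays as 1 group. With 3 arrays per group, genes whose spread between tumour lines is wide are the least certain, and levels near the bottom of the scale bound no true zero.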

Other observations

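Collagen genes outside the bone matrix moved in both directions: 7 of 30 measured chains were called higher and 5 lower, against 14.5% and 9.63% of all genes. The chains of collagen VI, a microfibril collagen around cells, were among the higher ones, with Col6a1 at 13.04, 12.64 and 12.83 in pre-osteoblasts against 12.27, 12.34 and 12.23 in osteoblasts and 11.99, 11.44 and 12.06 in the tumour lines (0.78 ± 0.14; limma adjusted p = 5.48e-03). Col4a5, a basement membrane chain, was higher by 0.61 ± 0.07. Among fibroblast genes, 4 of 23 were called higher and 7 lower, or 1 and 1 with the 6 other arrays as 1 group. Postn, a matricellular protein, was lower (-1.80 ± 0.32). Among 27 enzymes that remodel matrix, 3 were higher and 4 lower, with 1 higher without any 1 of the pre-osteoblast cultures.

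Imprinted growth regulators were lower in 7 of 16 measured genes and higher in 0, with 2 called without the second or the third pre-osteoblast culture. Plagl1, a zinc finger factor of the imprinted gene network, lay at 7.45, 7.32 and 7.31 against 8.71, 8.65 and 8.19 and against 9.88, 9.26 and 9.97 (-1.75 ± 0.17; limma adjusted p = 3.21e-04). Antioxidant genes had 2 of 27 called higher and 7 lower, or 4 lower without the second and 3 without the third pre-osteoblast culture. Slc7a11, the cystine importer that feeds glutathione synthesis, lay at 7.94, 6.76 and 7.32 against 9.64, 9.48 and 9.66 and against 10.06, 9.21 and 9.91 (-2.32 ± 0.26; limma adjusted p = 5.97e-04). Chondrocyte markers gave 1 higher and 3 lower of 16, and endothelial markers 0 higher and 1 lower of 16. Neural markers gave 1 higher and 3 lower of 14, E2F targets 6 higher and 0 lower of 34, growth factor ligands 4 of each among 27, and reference genes 4 higher and 1 lower of 11. Among 726 long non-coding RNA genes, 42 were called higher and 42 lower. Over all genes, 14.5% were called higher and 9.63% lower.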
